A study of Mus musculus with 18 samples.

Results

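Transcripts that lie outside annotated genes were described in mouse myotubes, where both ends of each RNA molecule had been read together by TIF-seq2. The members are the isoforms that the authors' deposited tables class as intergenic, on nuclear chromosomes. The table of the polysome experiment lists 151 of them among 7095 nuclear isoforms, and the table of the decay experiment lists 119 among 6593. An isoform here is a pair of a 5′ end and a 3′ end. Over both tables there were 236 different pairs of ends. Rows on the mitochondrial chromosome with the same class, 4 in the polysome table and 16 in the decay table, were left out.

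The cells were primary myoblasts of wild-type female mice, taken from the gastrocnemius muscle and fused into myotubes within 24 h of 1 µM of an ERK inhibitor. For polysome profiling, myotubes were held in 100 µg/ml cycloheximide for 5 min, and their lysates were spun through sucrose (10 to 50%). RNA came from material without ribosomes, from light polysomes of 2 to 5 ribosomes and from heavy polysomes of at least 6, each from 2 mice. For the decay assay, transcription was blocked with 7.5 µg/ml actinomycin D for 0, 3, 6 or 12 h, with 3 mice at each time. The labels carry the same 2 mouse numbers in every fraction and the same 3 mouse letters at every time point. The tables hold 1 coverage count per isoform summed over the 6 polysome or the 12 decay libraries, so no value per mouse, fraction or time point could be given and no difference was tested. All intervals are 95% intervals that cover counting or sampling of isoforms only, and isoforms that share an end are not independent. In such bulk samples fewer cells of a type and less RNA per cell cannot be told apart.

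Intergenic transcripts in general are those outside gene models, and how the authors set the class is not given in the files. Such a class can hold unannotated genes, long non-coding RNAs, RNAs read from the strand opposite a gene and transcription beyond a gene's end. Long non-coding RNAs are not known to encode a protein, and many of them are capped and polyadenylated like mRNAs. H19, an imprinted RNA of developing and regenerating muscle, is a textbook example.

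A few members can be shown by sequence, since they start inside the 3′ end of a known mRNA on the other strand. They belong to a set of 21 mirror images of mRNA rows. Each line below gives the last 30 bases of the mRNA's deposited 3′ UTR and then the first bases of the member, its reverse complement without the mRNA's final bases. Capitals mark the poly(A) signal hexamer of the mRNA, AATAAA or ATTAAA, and its reverse complement in the member. The desmin mRNA (Des) and the skeletal muscle actin mRNA (Acta1) carry the most covered members of the set, and Tpm2, Mylpf and Actc1 encode further proteins of the contractile filaments.
Des mRNA, end: ggacagaaacaatAATAAAgagacaagcac
Member opposite Des, start: tgcttgtctcTTTATTattgtttctgtcc
Acta1 mRNA, end: gcATTAAAgccagccattctgttttgctcc
Member opposite Acta1, start: acagaatggctggcTTTAATgc
Tpm2 mRNA, end: actacttAATAAActctgaacttggtctcc
Member opposite Tpm2, start: agttcagagTTTATTaagtagt
Mylpf mRNA, end: tcAATAAAactcaactggtctttgtttctt
Member opposite Mylpf, start: aagaccagttgagtTTTATTga
Actc1 mRNA, end: ataAATAAAccagaccaggacttgcaacct
Member opposite Actc1, start: agtcctggtctggTTTATTtat

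The member's letters were derived from the mRNA row, because the tables give no sequence for intergenic rows. They rest on the deposited 3′ UTR ending at the listed 3′ end. Where 1 deposited 3′ UTR was the start of a longer one, the difference in length equalled the distance between the listed ends in 486 of 495 pairs of the polysome table.

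Intergenic isoforms were few and mostly thinly covered, and a handful of loci held most of their RNA. In the polysome table they made up 2.13% of nuclear isoforms (interval 1.82 to 2.49%) and 1.92% of nuclear coverage. In the decay table they made up 1.80% of isoforms (interval 1.51 to 2.16%) and 1.44% of coverage. The median coverage of a member was 23 (interval 19 to 28) in the polysome table, where isoforms of all other classes had a median of 33. In the decay table the medians were 49 (interval 41 to 74) and 70. Isoforms with a new start site were about as thinly covered, with medians of 25 (polysome) and 49 (decay). Those with both a new start and a new end site had medians of 26 and 52. The lists start at a coverage of 11 in the polysome table and of 21 in the decay table, so less covered isoforms were not seen. Members below a coverage of 30 numbered 95 of 151 in the polysome table and 25 of 119 in the decay table.

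The most covered member had a coverage of 4397 in the polysome table and 8772 in the decay table. The 10 most covered members together held 69.9% of intergenic coverage in the polysome table and 69.8% in the decay table. When isoforms with a shared end or with an overlap of at least 50% of the shorter span were joined, the 236 isoforms formed 153 loci. Of these, 48 had more than 1 isoform. The 10 loci with the highest coverage over both tables held 85.9% of intergenic coverage in the polysome table and 84.5% in the decay table.

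**Figure D1:**
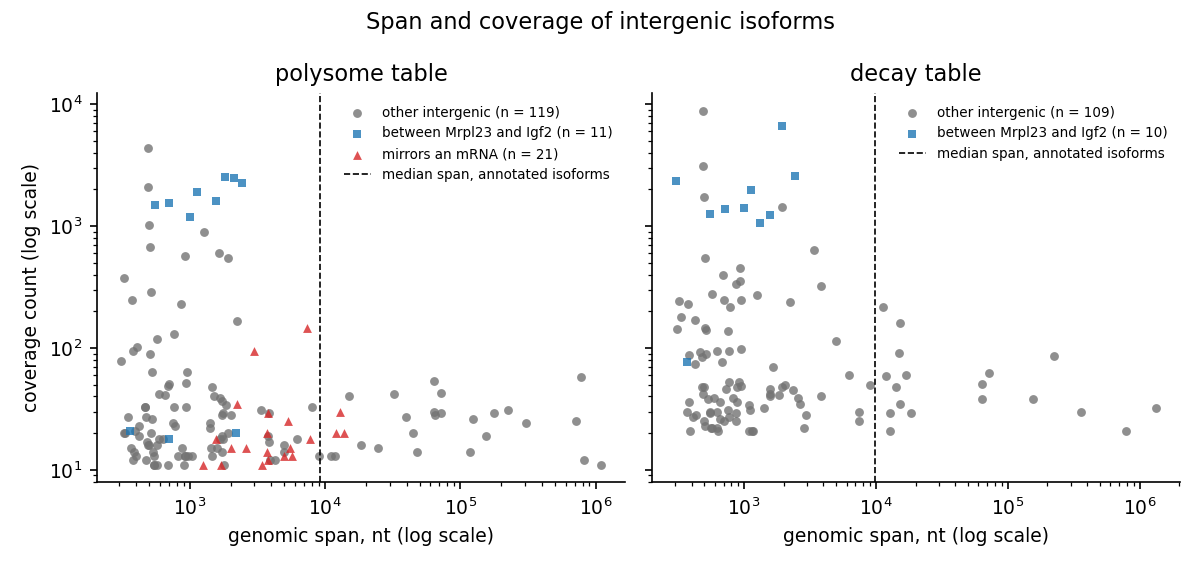
Genomic span of each intergenic isoform in nt (x axis, log scale) against its coverage count (y axis, log scale) in the polysome table (left, 151 isoforms) and the decay table (right, 119 isoforms). Blue squares are isoforms between Mrpl23 and Igf2, red triangles are the 21 isoforms that mirror an mRNA on the other strand, and the dashed line is the median span of annotated isoforms (9167 and 9791 nt). Most members lie left of the line, and no member with a span above 100000 nt had a coverage above 58 (polysome) or 86 (decay).

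Members were shorter than genes. The span, the genomic distance from end to end with any introns included, had a median of 1556 nt (interval 958 to 1805) in the polysome table and 889 nt (interval 750 to 1136) in the decay table. Annotated isoforms had medians of 9167 and 9791 nt. Spans of at most 1000 nt were found for 42.4% of members in the polysome table and 55.5% in the decay table, against 5.17% and 3.46% of all other isoforms. Among the classes with a new start site, which come closest, the share was 14.2% and 9.11%. Whether an isoform was spliced is not given for intergenic rows. The shortest span was 311 nt in the polysome table, at chr5:134492069-134492379 on the plus strand, with a coverage of 78. The shortest in the decay table was 306 nt and belonged to the most covered locus.

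Very long members also existed, all of them thinly covered. Spans above 100000 nt were listed for 10 polysome members (6.62%) and 5 decay members (4.20%), with a median coverage of 24.5 and 32. Of other isoforms 3.69% and 3.27% were as long, shares that lie inside the intervals of the members' shares (3.64 to 11.8% and 1.81 to 9.46%). The longest was chrX:129425329-130751696 on the plus strand, 1326368 nt with a coverage of 32, in the decay table alone. The longest of the polysome table were a pair that starts at position 95426310 of chromosome 1 on the plus strand and spans 818046 and 1089943 nt, with a coverage of 12 and 11. No row of another class lay within any of these 3 spans, on either strand. The plus-strand member chr17:81613789-82398863, 785075 nt long, was listed in both tables with a coverage of 58 (polysome) and 21 (decay).

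Several long members start exactly where a short, well covered member starts. From position 57994470 of chromosome 6 a 492 nt isoform had a coverage of 4397 (polysome) and 8772 (decay), and a 154675 nt isoform had 19 and 38. From position 105919263 of chromosome 14 a 376 nt isoform had 249 and 230, and a 224902 nt isoform had 31 and 86. On the minus strand of chromosome 12, from position 51181772, a 1649 nt isoform had a coverage of 607 in the polysome table and a 178000 nt isoform had 29. In each of these cases the long form was the less covered, and on chromosomes 6 and 14 it was listed with identical ends in both experiments.

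The most covered locus, with 17 isoforms, lies at chr7:142129269-142131714 on the minus strand and held 49.0% of intergenic coverage in the polysome table and 44.4% in the decay table. The nearest rows on both sides that could be named through their 5′ UTR sequence belong to Mrpl23, a mitochondrial ribosomal protein gene 34790 nt away, and to Igf2, the insulin-like growth factor gene 72792 nt from the longest isoform. Between these genes RefSeq, in the older build GRCm38, lists the long non-coding RNAs Nctc1, H19 and Gm33148 and the microRNA gene Mir675. RefSeq's H19 gene is 2617 nt long, and the longest isoform of the locus spans 2446 nt. The builds differ, so the isoforms were not placed on H19 by position.

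In this locus 15 of the 17 isoforms end at the same base, 142129269, and differ in where they start. The polysome table lists 9 of them. Their coverage was 1487 for the 554 nt isoform, 1557 for 699 nt, 1178 for 1007 nt, 1891 for 1136 nt, 1602 for 1569 nt, 2531 for 1815 nt, 2495 for 2108 nt, 20 for 2186 nt and 2277 for 2446 nt. The decay table lists 10. Their coverage was 2361 for the 306 nt isoform, 77 for 367 nt, 1252 for 550 nt, 1388 for 723 nt, 1399 for 1007 nt, 1991 for 1136 nt, 1053 for 1328 nt, 1243 for 1569 nt, 6584 for 1933 nt and 2595 for 2446 nt. The listed 5′ ends were thus spread over the whole length of the locus. Whether each marks a start of transcription was not tested. Only 4 isoforms had identical ends in both tables, those of 1007, 1136, 1569 and 2446 nt. The mean span weighted by coverage was 1545 nt in the polysome table and 1431 nt in the decay table. The remaining 2 isoforms end inside the locus, at position 142131013, with a coverage of 21 and 18 in the polysome table alone.

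**Figure D2:**
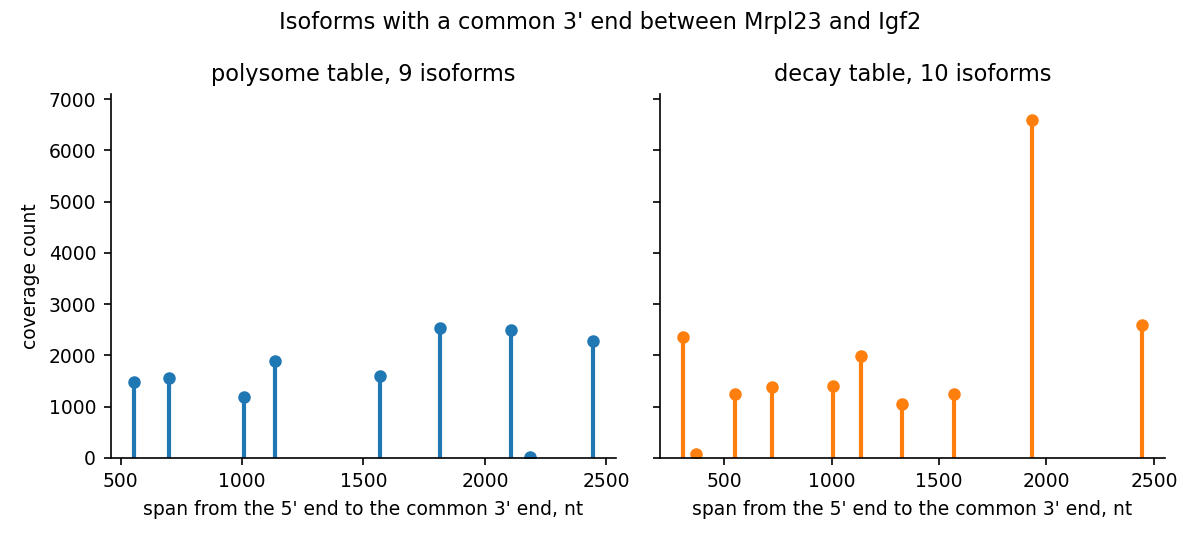
Coverage count (y axis, linear, from 0) of each isoform that ends at the common 3′ end between Mrpl23 and Igf2, against its span in nt (x axis), in the polysome table (left, 9 isoforms) and the decay table (right, 10 isoforms). Each line is 1 isoform. The highest value is 6584, for the 1933 nt isoform of the decay table, and the 2446 nt isoform is well covered in both tables (2277 and 2595).

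The best covered isoforms of the other loci were short, and these loci had 1 to 4 isoforms. The locus on chromosome 9, minus strand, had isoforms of 489 and 508 nt that share the 5′ end at 19839619, with a coverage of 2093 and 677 in the polysome table and 3141 and 548 in the decay table. The member chr18:64421408-64421904, 497 nt on the plus strand, had 1019 and 1720. The member chr11:62493703-62495632, 1930 nt on the plus strand, had 549 and 1434. On chromosome 17, minus strand, isoforms of 924 and 865 nt that start at 17566476 had 568 and 231 in the polysome table and 355 and 337 in the decay table, and a 47902 nt isoform from the same start had 14 in the polysome table. On chromosome 12, plus strand, the 1268 nt isoform from 73086113 had 887 in the polysome table, and the decay table lists a form starting 3 nt further on with 273. No symbol could be paired with the positions of these loci here, so they are given by position only.

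For some loci the flanking named rows left a short list of RefSeq genes. Such an interval with at most 8 genes was found for 34 of the 236 isoforms, in 16 loci, and 17 of the 34 belong to the locus between Mrpl23 and Igf2. The minus-strand member chr17:35169218-35171444 spans 2227 nt and had a coverage of 166 (polysome) and 240 (decay). It lies between rows named Neu1 and Lsm2, an interval whose 7 RefSeq genes include the long non-coding RNA 1110038B12Rik, 2237 nt long and also on the minus strand. Members on the minus strand that end at position 24938507 of chromosome 17, 367 and 398 nt long with a coverage of 15 and 13, lie between Gfer and Ndufb10. The 7 RefSeq genes there include Snhg9, a host gene of small nucleolar RNAs that is 435 nt long on the minus strand. The plus-strand locus chr7:44122964-44134838, with a coverage of 13 (polysome) and 59 (decay), lies between Josd2 and Emc10. RefSeq has the single long non-coding RNA 5430431A17Rik there, only 897 nt long, while the members span 11874 (polysome) and 11871 nt (decay). The minus-strand member chr19:5851964-5852699 of the decay table, 736 nt long with a coverage of 46, lies between Ehbp1l1 and Frmd8. The 7 genes of that interval include the abundant nuclear RNAs Malat1 and Neat1, which are 6983 and 20773 nt long. Each of these is a neighbourhood and not an identification.

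Members were found on every chromosome listed, all 20 in both tables. Chromosome 7 held 17 members in each table, which were 11.3% of members in the polysome table and 14.3% in the decay table, close to its 12.4% and 11.2% of isoforms of other classes. Chromosome 9 held 18 members in the polysome table (11.9%) and 6.06% of other isoforms there. In the decay table it held 8 members (6.72%) and 5.99% of other isoforms. Counted by locus, chromosome 7 held 7 in each table, since the locus between Mrpl23 and Igf2 has most of the isoforms there. The plus strand held 68 of 151 members (45.0%, interval 37.3 to 53.0%) in the polysome table and 53 of 119 (44.5%, interval 35.9 to 53.5%) in the decay table. Both intervals include an even split between the strands.

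Most members of the decay table lay far from any other transcript, while the polysome table had many that overlapped one. Of the 119 decay members, 20 (16.8%, interval 11.2 to 24.5%) lay within 5000 nt of a row of another class in the same table, on either strand. Of the 151 polysome members, 70 did (46.4%, interval 38.6 to 54.3%). Counting annotated rows alone, 10 decay and 35 polysome members had one that near, and counting rows of at most 100000 nt, 9 and 48 did. The median distance to the nearest row of any other class was 159332 nt in the decay table and 34164 nt in the polysome table. Distances above 100000 nt were found for 65 decay and 60 polysome members. The lists are expressed transcripts and not a gene annotation, so an unexpressed gene can lie closer.

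More overlaps were on the opposite strand than on the same strand, but 21 of those in the polysome table are the mirrored members described below. Among polysome members, 44 overlapped a row of another class on the opposite strand and 19 on the same strand. Among decay members, 9 and 6 did. Where only neighbours spanning at most 100000 nt were counted, 31 polysome members overlapped one on the opposite strand and 3 on the same strand, against 4 and 0 in the decay table. Beyond overlaps, 6 polysome members had an opposite-strand row within 5000 nt on their upstream side, the arrangement of divergent transcription, and 4 on their downstream side. The decay table had 2 and 2. Among members without an overlap on either strand, the closest to another transcript were chr19:8700851-8703806 in the decay table, 124 nt from an upstream row of the opposite strand, and the 398 and 367 nt members at chromosome 17 position 24938507 in the polysome table, 180 and 211 nt from one. The most distant in the polysome table were the members at chromosome 14 position 105919263, 27806897 nt from the next row. In the decay table the next row lay 4041382 nt from them. The most distant in the decay table was chr18:10274307-10274714, 13273769 nt from the next row. The polysome table lists chr18:10274306-10274714, 824327 nt from its next row.

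Of the 44 opposite-strand overlaps of the polysome table, 21 were mirror images of an mRNA. In a mirrored member both ends lie within 15 nt of the ends of a more covered row on the other strand. The member's ends are thus those of the mRNA in reverse, and what lies between them is not given. These 21 made up 13.9% of polysome members (interval 9.28 to 20.3%) but 1.90% of their coverage. The displacement was nearly fixed. In 17 of 21 the member started 8 nt inside the mRNA's 3′ end, in 14 it ended 8 nt beyond the mRNA's 5′ end, in 10 both held, and in all 21 at least 1 end was displaced by 8 nt. The pattern was noticed in these data and the limit of 15 nt was set after seeing it.

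The mRNA rows with a listed mirror were among the most covered of the polysome table, which the listing limit favours. Members are listed only from a coverage of 11, so a mirror at a similarly small share of a much less covered mRNA could not be seen. Des, the intermediate filament of muscle, had a coverage of 50264 and its mirrored member, chr1:75336968-75344356 on the minus strand, had 145. RefSeq's genes between the named rows on either side of that member also include a long non-coding RNA on the minus strand, Gm15179. Acta1 had 28298 and its member, chr8:124618516-124621498 on the plus strand, had 95. These are the only members of the set with a coverage above 35. The others had between 11 and 35, and their mRNA rows between 4594 and 14873.

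Named partners came from muscle filaments and from genes that every cell uses. Tpm2, the beta tropomyosin gene, had a coverage of 8897 with a member of 18. The fast myosin light chain gene Mylpf had 8097 with 15, the cardiac actin gene Actc1 had 5953 with 15, and the smooth muscle actin gene Acta2 had 7787 with 20. The ribosomal protein genes Rplp2 and Rpsa had 12873 with 20 and 8829 with 29. The ribosome-bound scaffold gene Rack1 had 5433 with 13, and the ubiquitin gene Ubb had 6348 with 11. The tubulin gene Tuba1a had 5320 with 14, the small heat shock protein gene Hspb1 had 4595 with 18, and Uqcrc1, of the mitochondrial respiratory chain, had 10780 with 30. The other 8 partners could not be named.

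The member's coverage was a small share of the mRNA's. The share ranged from 0.0874% (interval 0.0511 to 0.150%) to 0.468% (interval 0.336 to 0.650%) with a median of 0.257%, so it varied beyond counting error. For Des it was 0.288% (interval 0.245 to 0.339%) and for Acta1 0.336% (interval 0.275 to 0.410%). Over the 21 pairs, Spearman's rho between both coverages was 0.59, a description over rows that were listed only from a coverage of 11. Of the 56 nuclear rows of the polysome table with a coverage of at least 4594, the lowest among the partners, 22 were mirrored by a less covered row of any class and the other rows had no listed mirror.

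**Figure D3:**
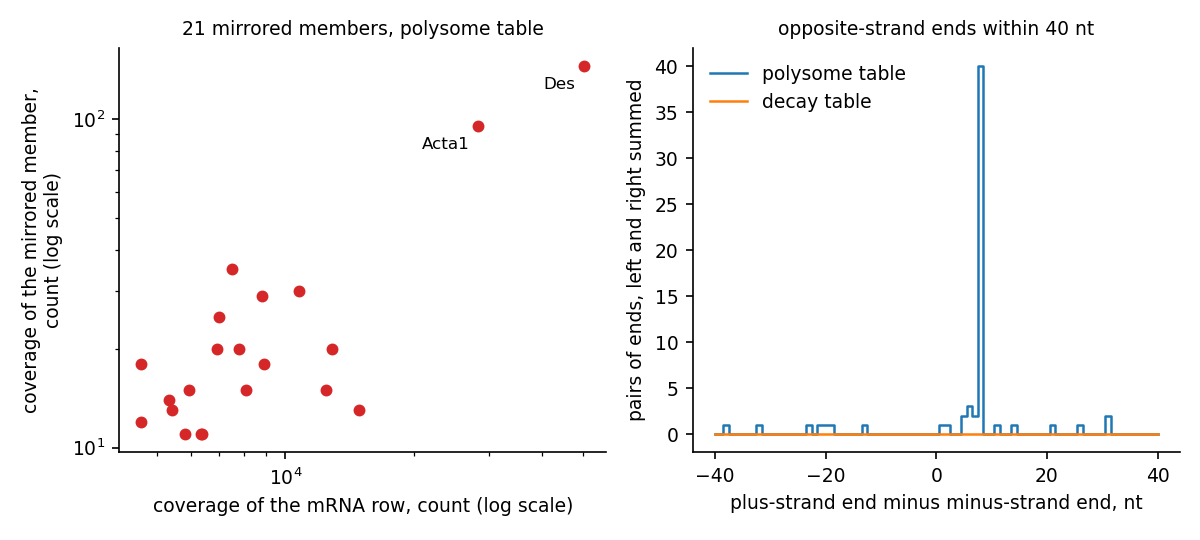
Left, coverage count of each of the 21 mirrored members (y axis, log scale) against that of the mRNA row on the other strand (x axis, log scale) in the polysome table. Right, number of pairs of a plus-strand and a minus-strand end (left with left and right with right ends, summed) at each distance in nt from -40 to 40, for the polysome table (blue) and the decay table (orange). The polysome line peaks at 8 nt, where 21 left and 19 right ends fall, and the decay line is at 0 throughout.

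Left ends were compared with left ends and right ends with right ends. Within 40 nt of each other the polysome table had 30 pairs of left ends, of which 21 were displaced by 8 nt, and 32 pairs of right ends, of which 19 were. In the decay table no pair of left ends or of right ends on opposite strands lay within 40 nt, and it had no mirrored member. That table is deeper, with a nuclear coverage of 3117987 against 1600529, and 123 of its rows had a coverage of at least 4594. None of the 123 was mirrored, which allows a share of up to 2.44% by 3 counts in 123 (Wilson upper bound 3.03%). All 21 partners were listed in the decay table with both ends within 10 nt. For 16 of them the polysome share of the member, applied to the partner's decay coverage, comes to at least 21, the lowest coverage listed there. For Des it comes to 125 from a partner coverage of 43471, and for Acta1 to 142 from 42409. None of the 16 members was overlapped by a decay row on its own strand. The cause of this difference was not tested.

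Poly(A) signals were sought at the mRNA's 3′ end and, on the member's strand, over the mRNA's 5′ end. Of the 19 partners with a 3′ UTR of at least 40 nt, all 19 held AATAAA or ATTAAA in its last 40 nt, as did 79.7% of all other-class rows of the polysome table. The reverse complement of the partner's first 32 bases, over which the member ends, held neither hexamer in any of the 20 partners with a 5′ UTR that long. Among all such rows that share was 0.204%, so its absence is what most rows show. Only these letters on the given strand were searched.

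Further members had an end displaced by 8 nt from an opposite-strand end but were not counted as mirrored, because the other end lay elsewhere or the less covered row was of another class. On chromosome 16 the plus-strand member 20640865-20641435, 571 nt with a coverage of 16, ends 8 nt beyond the start of 2 minus-strand members at 20641427, of 589 and 71651 nt, with a coverage of 42 and 43. On chromosome 9 the well covered minus-strand members that start at 19839619 face a plus-strand row of 495 nt with a coverage of 20, which ends 8 nt beyond that start and is itself classed as having a new start and end site. Its own start lies 2 nt inside the 3′ end of the 489 nt member, so here the member is the more covered row of a mirrored pair. On chromosomes 4 and 9 short minus-strand members of 922 and 1599 nt, with a coverage of 13 and 15, end 8 nt beyond the start of plus-strand rows spanning 1413289 and 1390497 nt with a coverage of 733 and 434.

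Without the 21 mirrored members, the median span of the 130 remaining polysome members was 1018.5 nt (interval 814 to 1649). Of these 130, 18 overlapped a same-strand row and 23 an opposite-strand row (17.7%, interval 12.1 to 25.2%). On the opposite strand the decay table had 9 of 119, so the gap between the tables was smaller without the mirrored members.

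A further group that the polysome table alone lists lies in 2 stretches of chromosome 19. In the first, chr19:3589790-3872539, 5 members spanned 32201 to 123508 nt with a coverage of 14 to 42. In the second, chr19:23044507-25134039, 4 members spanned 8035 to 72025 nt with a coverage of 28 to 33. Of these 9 members, 1 in the first stretch and all 4 in the second shared an end with a row of another class. The polysome table has 21 rows over the first stretch and 30 over the second, of which 13 and 26 are classed as having both a new start and a new end site. The decay table has 2 rows over the first stretch and 0 over the second. Both stretches thus hold thinly covered long isoforms in the polysome table, and few or no rows of any class in the decay table.

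The tables shared most of the well covered loci, while many exact pairs of ends, abundant ones included, were listed in 1 table only. Identical ends in both were found for 34 isoforms, which were 22.5% of the polysome list (interval 16.6 to 29.8%) and 28.6% of the decay list (interval 21.2 to 37.3%). They carried 59.7% and 60.3% of intergenic coverage. Of all other classes, 2419 isoforms were shared, out of 6944 in the polysome list and 6474 in the decay list. Annotated isoforms were shared for 40.9% and 42.7% of the lists, and those with a new end site for 40.9% and 38.7%. For those with a new start site it was 21.3% and 25.8%, and for those with both new 25.3% and 30.2%. The members' shares were thus close to those of the classes with a new start site. With both ends allowed to differ by up to 10 nt, 61 members of each list had a counterpart. With an overlap of at least 50% of the shorter span, 88 polysome members and 74 decay members had one, and these held 95.4% and 95.7% of intergenic coverage. By locus, 56 of 153 were seen in both tables, 54 in the polysome table alone and 43 in the decay table alone. The looser matches and the loci were counted for intergenic members only, so no share of other classes stands beside them.

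**Figure D4:**
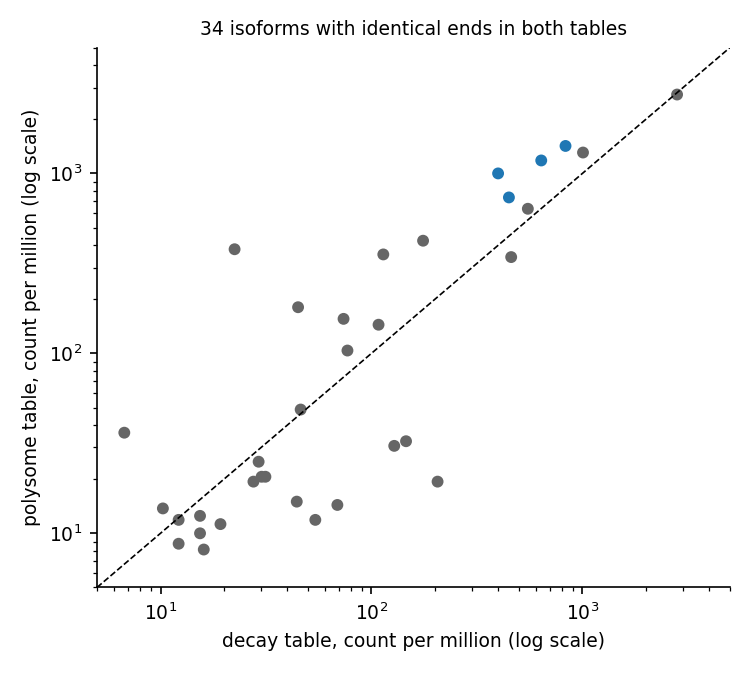
Coverage per 1000000 of nuclear coverage in the decay table (x axis, log scale) and in the polysome table (y axis, log scale) for the 34 intergenic isoforms with identical ends in both. Blue points are the 4 isoforms between Mrpl23 and Igf2, and the dashed line marks equal values. The blue points all lie above the line, and the points farthest from it, chr12:51180124-51181772 above and chr1:160862736-160866107 below, differ 16.9-fold and 10.6-fold.

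For the 34 shared members the coverage per 1000000 of nuclear coverage ranged together in both tables, with a Spearman's rho of 0.79 over points that share a pipeline but no library. The log2 ratio of polysome over decay coverage had a median of -0.04 and an SD of 1.48 over the 34 members. Over the 2419 shared isoforms of other classes it had a median of 0.03 and an SD of 1.49, so members varied between the experiments about as much as other isoforms. The value was higher in the polysome table for 16 of the 34. The largest difference was that of chr12:51180124-51181772 on the minus strand, with 379 per 1000000 in the polysome table and 22.5 in the decay table, which is 16.9-fold. The plus-strand member chr1:160862736-160866107 had 19.4 and 206, 10.6-fold higher in the decay table. The long plus-strand member chr17:81613789-82398863 had 36.2 and 6.74, which is 5.38-fold. The 4 shared isoforms between Mrpl23 and Igf2 were each higher in the polysome table, by 1.64 to 2.51-fold. The experiments differ in treatment and fractionation, and no ratio has a replicate behind it.

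No ribosome association can be given for any member. The polysome table holds a translation efficiency for other classes, and the cell is blank for all 151 intergenic isoforms.

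Half-lives, as deposited by the authors, were given for 116 of the 119 members of the decay table. The column names no unit; the decay time points were in hours. Described here are the 93 members, in 76 loci, with a coverage of at least 30 and a half-life above 0. Their median half-life was 11.9 (interval 10.8 to 13.0), and that of the 5154 isoforms of all other classes was 10.8 (interval 10.7 to 10.9). Of the 93 members, 57 (61.3%) were above the median of the other classes. The quartiles of the members were 9.65 and 14.3, and those of the other classes 8.90 and 13.1, so both distributions overlapped almost wholly.

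**Figure D5:**
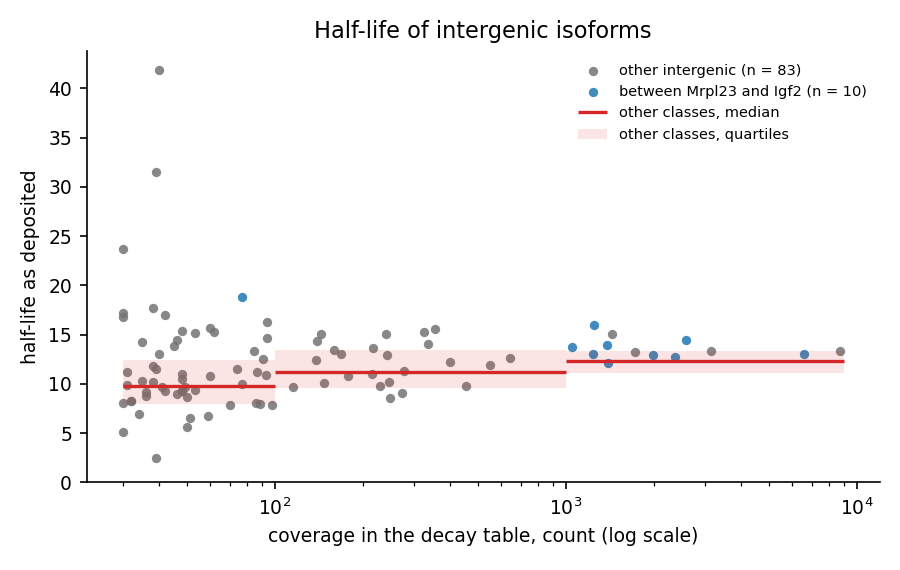
Half-life as deposited (y axis, unit not given in the table) of the 93 intergenic isoforms against their coverage count in the decay table (x axis, log scale). Blue points are the 10 isoforms between Mrpl23 and Igf2, red lines are the medians and red bands the quartiles of the other classes at a coverage from 30, from 100 and from 1000 upward. Values spread from 2.49 to 41.8 at low coverage and from 12.1 to 16.0 at a coverage of 1000 and above.

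Half-lives were longer at higher coverage in members and in other isoforms alike. The coverage is summed over all 12 decay libraries, those after actinomycin D included, so it is not independent of the half-life. At a coverage from 30 to below 100 the median of 56 members was 10.6 (interval 9.35 to 11.9) and that of other isoforms was 9.82. From 100 to below 1000 the median of 24 members was 12.3 (interval 10.2 to 13.6) against 11.2. At 1000 and above the median of 13 members was 13.3 (interval 12.9 to 14.5) against 12.3. The members' median was above that of the other classes in each coverage range. The other classes' median lay inside the members' interval in both lower ranges, and below it at 1000 and above, where 9 of the 13 members belong to the locus between Mrpl23 and Igf2. Spearman's rho between half-life and coverage was 0.21 over the 93 members and 0.29 over the other isoforms. Between half-life and span it was -0.0023 and -0.14.

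The 10 isoforms between Mrpl23 and Igf2 had half-lives of 12.1 to 18.9 with a median of 13.4, each above 10.8, the other classes' median over all coverages from 30. They were 12.7 for the 306 nt isoform, 18.9 for 367 nt, 16.0 for 550 nt, 13.9 for 723 nt, 12.1 for 1007 nt, 12.9 for 1136 nt, 13.7 for 1328 nt, 13.0 for 1569 nt, 13.0 for 1933 nt and 14.5 for 2446 nt. The highest value came from the isoform with a coverage of 77, and among the other 9, all above a coverage of 1000, values stayed between 12.1 and 16.0. Of other isoforms at a coverage of 1000 and above, 80.3% also exceeded 10.8. Their own median was 12.3, above the value of the 1007 nt isoform. There was no trend with length (rho -0.05 over 10 isoforms that share a 3′ end). Without this locus the median of the 83 other members was 11.2 (interval 10.2 to 12.6), an interval that includes the median of the other classes.

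The other most covered loci had half-lives on both sides of the other classes' median of 10.8. The values were 13.3 for the 492 nt member of chromosome 6, 13.3 and 11.9 for the 489 and 508 nt members of chromosome 9, 13.2 for chr18:64421408-64421904 and 15.1 for chr11:62493703-62495632. The 924 and 865 nt members of chromosome 17 had 15.5 and 14.0. Lower values were found for the plus-strand member chr12:73086116-73087380, with 9.12 at a coverage of 273, and for the minus-strand members of chromosome 1 that start at 86837424, with 9.75 and 8.55 at a coverage of 455 and 249. The member chr12:51180124-51181772, which had the largest excess in the polysome table, had 7.90 at a decay coverage of 70. The member chr1:160862736-160866107, with the largest excess in the decay table, had 12.6.

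The extremes all had a low coverage. The longest half-lives were 41.8 for chr2:84572516-84574100 on the minus strand (coverage 40), 31.5 for chr15:76221775-76222598 on the plus strand (coverage 39) and 23.7 for the 359354 nt member chr2:162303347-162662700 (coverage 30). All 3 values exceed the last time point of 12 h if the unit is hours. That is not limited to the extremes. The upper quartile of the 93 members was 14.3, and all 10 isoforms between Mrpl23 and Igf2 (12.1 to 18.9) exceed 12 as well. So do all 13 members at a coverage of 1000 and above (12.1 to 16.0). The shortest were 2.49 for chr4:97409385-97411946 on the minus strand (coverage 39), 5.12 for chr5:22817596-22818215 on the minus strand (coverage 30) and 5.59 for chr11:69572921-69581967 on the plus strand (coverage 50). Below a coverage of 30 values ranged from 0.778 to 68.8.

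No repeat measurement of a half-life could be given. Compared were 6 pairs of decay members with 1 shared end and the other end within 50 nt, all from the same pooled libraries. Their half-lives differed by 1.12 to 1.92-fold with a median of 1.29-fold. This spread does not measure variation between mice or libraries. At a coverage of 3141 and 548 the pair on chromosome 9 gave 13.3 and 11.9, and at 455 and 249 a pair on chromosome 1, from position 86837424 of the minus strand, gave 9.75 and 8.55. At 98 and 53 a plus-strand pair on chromosome 6 that ends at 148257096 gave 7.87 and 15.1. In 3 of the 6 pairs 1 isoform had a coverage below 30.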

How the data were processed

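TIF-seq2 reads both ends of a molecule. The submitters' processing notes name the mouse build GRCm39 and STAR 2.5.3a, UMI-tools 0.5.4, cutadapt 1.16 and bcl2fastq 2.20.0. How ends were grouped into isoforms, how classes were set, how replicates were weighted and how half-lives were fitted are steps not given in the sources used here. Both deposited tables give 1 coverage count per isoform, summed over all libraries of an experiment, and the authors' translation efficiency and half-life as scores. They hold 0 columns of single libraries, so p-values were not computed.

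Positions were used as deposited. Rows of the class "intergenic" on nuclear chromosomes were taken. Medians carry exact order-statistic intervals and shares Wilson intervals, at a level of 95%. Neighbours were rows of another class in the same table, with 5000 nt as near. Mirrored pairs allowed 15 nt at each end. Rows of other classes were named, in a step added after the data were seen, when a 25 nt stretch of their deposited 5′ UTR occurred in a RefSeq promoter (GRCm38.p6) of a single symbol: 3017 of 10999 rows matched, 2973 of them (98.5%) on their own chromosome and strand, and only these were used. A row without a match took the symbol of rows that share an end. RefSeq's coordinates were not printed, only which genes neighbour each other and their lengths. Named isoforms were the 10 most covered loci, the 3 loci with the most isoforms (beyond the first, 5 tied with 4), the 3 longest and shortest spans and half-lives, the 3 nearest and farthest from another row (leaving out overlaps) and the 3 largest differences between the tables; mirrored, interval and chromosome 19 members were added after the data were seen. The members, lists and rules were chosen with earlier results of these data known. Calculations used Python 3.11.15, pandas 2.3.3 and scipy 1.17.1 and were tested on simulated data.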

Additional observations from a re-analysis of the deposited data

Results flagged for a closer look

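Rows of the intergenic class on the mitochondrial chromosome were not part of the comparisons, yet they carried signal above the floor of 3 counts. The polysome table has 4 such rows with a summed coverage of 65. The decay table has 16 with a summed coverage of 891, of which the highest is 119, and a median half-life of 8.46.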

How the results depend on the processing

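Of 54 recomputed values, 38 stayed within the interval of the reported value or within 1.5 times the reported count, and 16 did not; no result carried a test. The polysome share of nuclear coverage became 1.89% with a coverage of at least 30 and 0.981% without the locus between Mrpl23 and Igf2, and the decay share became 0.802% without it. By locus, chromosome 7 held 6.36% (polysome) and 7.07% (decay). With annotated neighbours only, 35 polysome and 10 decay members lay within 5000 nt, and with neighbours spanning at most 100000 nt 9 decay members did. Displacement by exactly 8 nt at both ends left 10 mirrored members, and 30 nt at each end gave 22 (polysome) and 0 (decay). Counterparts in the other table numbered 61 and 61 within 10 nt, 70 and 69 within 50 nt, and 88 and 74 by overlap. With a coverage of at least 100, 73.0% of members exceeded the half-life median of the other classes. The alternatives that left out mirrored members or the chromosome 7 locus, changed the mirror limit or capped the neighbours' span were chosen after seeing the data. Translation efficiency gave no value under any coverage minimum. No paired analysis was possible because the tables hold no column for a single library, and no library could be left out. Coverage limits the rare members: 95 of 151 polysome members lie below 30.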
